A study of Mus musculus with 14 samples.

Results

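The genes described here are 10 markers of alternative activation and repair in macrophages, chosen by name from the 19940 genes of the deposited table: Mrc1, Retnla, Cd163, Il10, Il1rn, Clec10a, Mgl2, Il4ra, Tgfbi and Igf1. All 10 had a row in the table. The 14 RNA sequencing libraries came from monocyte-derived macrophages sorted from the central nervous system at the peak of experimental autoimmune encephalomyelitis, an induced inflammatory disease of the mouse used as a model of multiple sclerosis. Mixed bone marrow chimeras were the source: lethally irradiated hosts were given as many marrow cells from wt donors (CD45.1) as from mCAT donors (CD45.2, CCR2creERT2/+, mcat lsl/wt), and there were 7 libraries of each. In mCAT cells a Cre recombinase made active by tamoxifen and driven from the Ccr2 gene switches on a catalase, an enzyme that degrades hydrogen peroxide, in mitochondria. Tamoxifen is given as the treatment of all 14 libraries, wt included. Both donor populations shared irradiated hosts, in which microglia of the host can remain, and the labels give no age for the animals.

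Alternative activation is the state that macrophages enter under the cytokines IL-4 and IL-13, which bind the receptor chain encoded by Il4ra and act through the transcription factor STAT6. The mannose receptor (Mrc1), the galactose-type lectins (Clec10a and Mgl2) and the secreted resistin-like protein encoded by Retnla are classical products of that pathway in the mouse. IL-10 restrains inflammatory gene expression and raises the haemoglobin scavenger receptor Cd163, the IL-1 receptor antagonist (Il1rn) blocks IL-1 signalling, and insulin-like growth factor 1 (Igf1) and the matrix protein encoded by Tgfbi act in tissue repair.

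The deposited values are log2 values in which low counts are compressed. They were converted back to normalised counts, which are counts scaled between libraries. A gene was tested if it had a normalised count of at least 10 in at least 7 libraries, which 8 of the 10 genes and 12096 genes in all did. Cd163 reached 10 in 5 libraries and Retnla in 1, so neither was tested. Log2 differences are on the deposited scale, and a gene was called when its adjusted p, from limma with Benjamini-Hochberg adjustment over all genes tested, was under 0.05. Estimated depth was 16.7 to 46.9 M reads (M for mega), the lowest in wt 7. Of the genes checked for the labels, Cat did not pass the test (2155 normalised counts in wt and 2831 in mCAT, adjusted p = 0.878), and Ccr2 was lower in mCAT when libraries were paired (adjusted p = 0.00587). Whether reads of the introduced catalase were counted as Cat is not given. The Cat values therefore do not settle whether the introduced catalase was expressed. Macrophage markers were abundant, with Lyz2 between 633465 and 4197780 normalised counts.

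The library codes fall into 2 series, C1 (8 libraries) and C2 (6 libraries), and into 8 stems such as C2_1. A wt and an mCAT library share the code stem in 6 cases, and these are treated below as pairs. The labels do not say what the series and stems stand for, so the series may differ in animals, experiment, day or sequencing.

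Levels can be compared between genes per kilobase (kb) of annotated exon. Tgfbi was the most abundant of the 10, at a mean of 36942 normalised counts per kb (SD 8398, n = 14), followed by Il1rn at 14072 (SD 4811) and Il4ra at 1589 (SD 468). In each of the 14 libraries Tgfbi lay above Il1rn, Il1rn above Il4ra, and Il4ra above Clec10a. Clec10a (131, SD 43.4), Il10 (129, SD 117), Mrc1 (116, SD 36.8) and Mgl2 (83.8, SD 34.7) formed a middle group whose neighbours did not differ beyond their spread. Clec10a exceeded Il10 in 9 of 14 libraries, Il10 exceeded Mrc1 in 5, and Mrc1 exceeded Mgl2 in 10. The place of Il10 in this group depended on the series, as it averaged 49.4 per kb in C1 and 236 in C2. Igf1 averaged 23.0 per kb (SD 29.6) and ran from 0.937 to 78.1. Retnla (5.67, SD 15.4) and Cd163 (2.37, SD 2.95) were lowest, and Retnla exceeded Cd163 in 4 of 14 libraries. The exon length joins all annotated transcripts of a gene, which is 9.90 kb for Igf1 and 1.31 kb for Il10, so it understates the level of a gene that uses short transcripts.

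**Figure D1:**
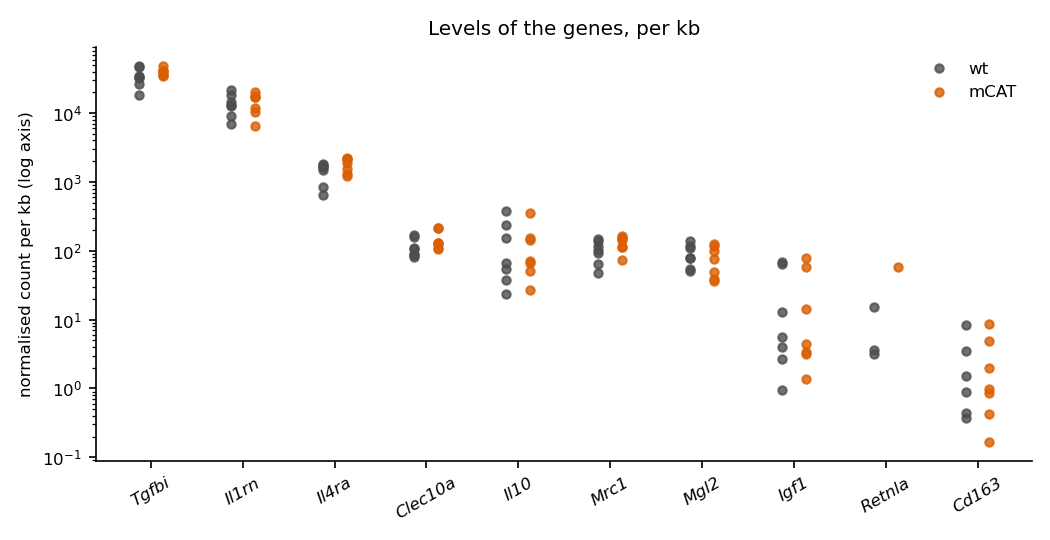
Normalised count per kb of exon (log axis) of each gene in each library, in order of the mean, with wt in grey and mCAT in orange. Libraries at 0 (10 for Retnla and 1 for Cd163) are not drawn. Tgfbi, Il1rn and Il4ra form 3 separate steps in each library, the middle genes overlap, and Igf1 and Il10 spread widest of the 8 tested genes.

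The first question was whether the mCAT genotype of the donor cells went with a different level of these genes. By the labels, the mCAT donors also differ from wt donors in CD45 allele and in the Cre allele of Ccr2. The parts of these and of mitochondrial catalase cannot be told apart in this comparison. None of the 8 tested genes was called between genotypes, where the share of all genes called was 0.198%, with 0.0827% higher and 0.116% lower in mCAT. No member had an unadjusted p under 0.05 without pairing, against 649 of all 12096 genes tested. Paired by code stem, again 0 of 8 were called, against 0.322% of all genes. In that fit Mrc1 and Il4ra had an unadjusted p under 0.05, as had 1116 of all 12096 genes tested. The median log2 difference of the 8 was 0.17, against -0.00 over all genes tested, and 6 of the 8 were above 0.

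Il4ra (ENSMUSG00000030748, chromosome 7), the signalling chain of the receptors for IL-4 and IL-13, ran from 3874 to 11018 normalised counts in wt libraries (median 9741) and from 7271 to 13281 in mCAT libraries (median 11350). The ranges overlapped widely, and the lowest values of both genotypes were those of wt 7 (3874), wt 6 (5103), mCAT 7 (7271) and mCAT 6 (7728). The log2 difference between mCAT and wt was 0.38 (SE 0.23, adjusted p = 0.878). Within pairs Il4ra was higher in mCAT in 5 of 6, by a median of 1.22-fold, with a log2 difference of 0.36 (SE 0.11, 95% interval 0.12 to 0.60, unadjusted p = 0.00604, adjusted p = 0.386). It therefore failed the correction over all genes in both fits. Of the stretches of 31 bases in annotated Il4ra transcripts, 8.86% also occur in transcripts of the predicted gene Gm44876, and reads of these cannot be assigned to either gene with certainty.

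Mrc1 (ENSMUSG00000026712, chromosome 2), the mannose receptor, ran from 304 to 959 in wt (median 647) and from 461 to 1047 in mCAT libraries (median 925). The pair of stem C1_5, wt 4 at 304 and mCAT 4 at 461, was the lowest of the 6 pairs. In stem C2_2 mCAT stood highest over its partner, at 964 against 414, and in stem C2_4 the order was turned, at 715 against 959. The log2 difference was 0.34 (SE 0.21, adjusted p = 0.878) without pairing and 0.39 (SE 0.14, 95% interval 0.09 to 0.69, unadjusted p = 0.0157, adjusted p = 0.462) with it. Mrc1 was higher in mCAT in 5 of 6 pairs, by a median of 1.46-fold. Being higher or lower in all 6 pairs was found for 2.74% and 2.63% of all genes, and no tested member was among them.

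Clec10a (ENSMUSG00000000318, chromosome 11) and Mgl2 (ENSMUSG00000040950, chromosome 11) encode neighbouring lectins that bind galactose and N-acetylgalactosamine. Clec10a had a median of 305 in wt (237 to 484) and of 371 in mCAT libraries (306 to 630), and Mgl2 a median of 167 (107 to 291) and of 159 (76.3 to 262). Clec10a differed by 0.27 (SE 0.17, adjusted p = 0.878) and Mgl2 by -0.17 (SE 0.20, adjusted p = 0.915), so neither passed. Over 14 libraries, with each genotype centred on its mean, their Pearson correlation was -0.04. In stem C1_2 mCAT 1 had the most Clec10a of all libraries (630) and the least Mgl2 (76.3). The 2 genes lie 25.9 kb apart, and 13.7% of the stretches of 31 bases in annotated Clec10a transcripts also occur in Mgl2 transcripts, against 19.3% the other way. Their values depend on how the authors' quantification divided such reads, and are uncertain to that extent.

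Retnla (ENSMUSG00000061100, chromosome 16), a strongly IL-4-inducible gene, was listed at 0 in 10 of 14 libraries. The 4 others were mCAT 1 at 34.3 normalised counts, wt 2 at 9.22, wt 1 at 2.14 and wt 6 at 1.89. The highest 2 share stem C1_2, so the gene was seen above 9 in 1 pair and close to 0 elsewhere. Cd163 (ENSMUSG00000008845, chromosome 6), the haemoglobin scavenger receptor, was also low, from 0 to 45.5 in wt (median 4.82) and from 0.911 to 47.7 in mCAT (median 5.44). Its top values were again those of stem C1_2, at 47.7 in mCAT 1 and 45.5 in wt 2, and the next were mCAT 4 at 26.9 and wt 3 at 19.2. The genotypes overlapped for both genes. Markers of border-associated macrophages, the resident macrophages of meninges and vessels that carry Mrc1 and Cd163, were counted beside them. The list itself includes Mrc1 (tested) and Cd163, so it is not a separate readout of these genes. Of 10 tested genes of that list 0 passed in any comparison, and the summed level of the 13 measured was 55840 to 89428 in C1 and 59555 to 79202 in C2. Their part in the Mrc1, Cd163 and Retnla values was not tested.

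The upstream sequences of Il1rn and Retnla are shown because they hold matches to motifs of factors of these pathways. RefSeq promoter sequences (GRCm38.p6, the 250 bases before each annotated start) matched 8 of the 10 genes, with 3 starts for Il1rn, and Il10 and Clec10a had no entry. Each is printed from the first of those bases to the last before an annotated exon, on the plus strand, with motif matches in capitals. The Il1rn windows are chr2:24336610-24336852 and chr2:24345041-24345287, and that of Retnla is chr16:48842359-48842550.
Il1rn first start: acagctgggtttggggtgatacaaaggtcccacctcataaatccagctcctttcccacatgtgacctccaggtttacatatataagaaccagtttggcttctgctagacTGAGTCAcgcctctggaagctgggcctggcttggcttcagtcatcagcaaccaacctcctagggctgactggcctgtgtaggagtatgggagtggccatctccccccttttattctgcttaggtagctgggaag
Il1rn second start: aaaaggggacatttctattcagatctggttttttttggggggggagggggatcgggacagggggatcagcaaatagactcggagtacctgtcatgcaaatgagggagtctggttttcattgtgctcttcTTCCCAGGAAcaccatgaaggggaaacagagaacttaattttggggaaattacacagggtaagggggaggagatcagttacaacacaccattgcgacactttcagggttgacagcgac
Retnla: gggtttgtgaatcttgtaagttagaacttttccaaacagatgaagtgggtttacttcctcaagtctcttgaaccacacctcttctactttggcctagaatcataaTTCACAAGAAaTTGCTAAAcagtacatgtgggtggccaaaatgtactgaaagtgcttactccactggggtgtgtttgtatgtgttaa
Both strands were searched. A gene was counted if any of its windows held a match, and the 8 genes have 10 windows. Counts of genes and shares of all windows below are therefore not on the same footing. The STAT6-type motif TTCNNNNGAA occurred in the windows of Il1rn and Retnla, 2 of 8 genes, and in 5.85% of the 32851 windows of the table. In Retnla it lies 145 to 136 bases before the start, with a C/EBP-type match at 134 to 127 bases (TTGCNNAA, 1 of 8 genes, 9.56% of all windows). The AP-1-type motif TGANTCA occurred in Igf1, where it lies in an annotated exon, and in the first Il1rn window (2 of 8, 6.75% of all), and the other STAT motif TTCNNNGAA in 0 of 8 (7.02% of all). These are matches of letters and not measured binding sites. Of the 2 genes with the STAT6-type match, Il1rn was among the most abundant of the 10 and Retnla among the least.

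Il1rn (ENSMUSG00000026981, chromosome 2) encodes the IL-1 receptor antagonist. It ran from 38239 to 119588 normalised counts in wt (median 71557) and from 35376 to 112256 in mCAT libraries (median 94132). Partners lay close together, with no pair further apart than 1.18-fold, while the pairs themselves spanned 3.15-fold, from stem C2_2 (36808) to C1_5 (115922). The genotype difference was 0.07 (SE 0.27, adjusted p = 0.978) without pairing and 0.01 (SE 0.08, 95% interval -0.16 to 0.18) with it.

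Il10 (ENSMUSG00000016529, chromosome 1), the anti-inflammatory cytokine, ran from 30.4 to 495 in wt (median 86.9) and from 34.7 to 460 in mCAT libraries (median 92.8). Its genotype difference was -0.02 (SE 0.37, adjusted p = 0.996), and -0.05 with pairing (95% interval -0.31 to 0.20). Il10 lies 7.04 Mb from Ptprc, the gene whose alleles separate the donors as CD45.1 and CD45.2. Whether sequence around it differs between the donors was not tested. Partners differed by at most 1.54-fold.

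Tgfbi (ENSMUSG00000035493, chromosome 13), a secreted matrix protein induced by TGF-beta, had a median of 126674 in wt (69049 to 183255) and of 152039 in mCAT libraries (132110 to 179360), a difference of 0.26 (SE 0.19, adjusted p = 0.878). The wt libraries reached both further down and further up. The largest partner difference was in stem C2_2, where mCAT 6 (135007) stood 1.96-fold above wt 6 (69049). Igf1 (ENSMUSG00000020053, chromosome 10) had a median of 55.9 in wt (9.28 to 681) and of 43.7 in mCAT libraries (13.7 to 773), with a difference of 0.01 (SE 0.61, adjusted p = 0.999) and, paired, of 0.06 (95% interval -0.21 to 0.32). In these sorted bulk samples, fewer cells of a type and less RNA per cell cannot be told apart.

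**Figure D2:**
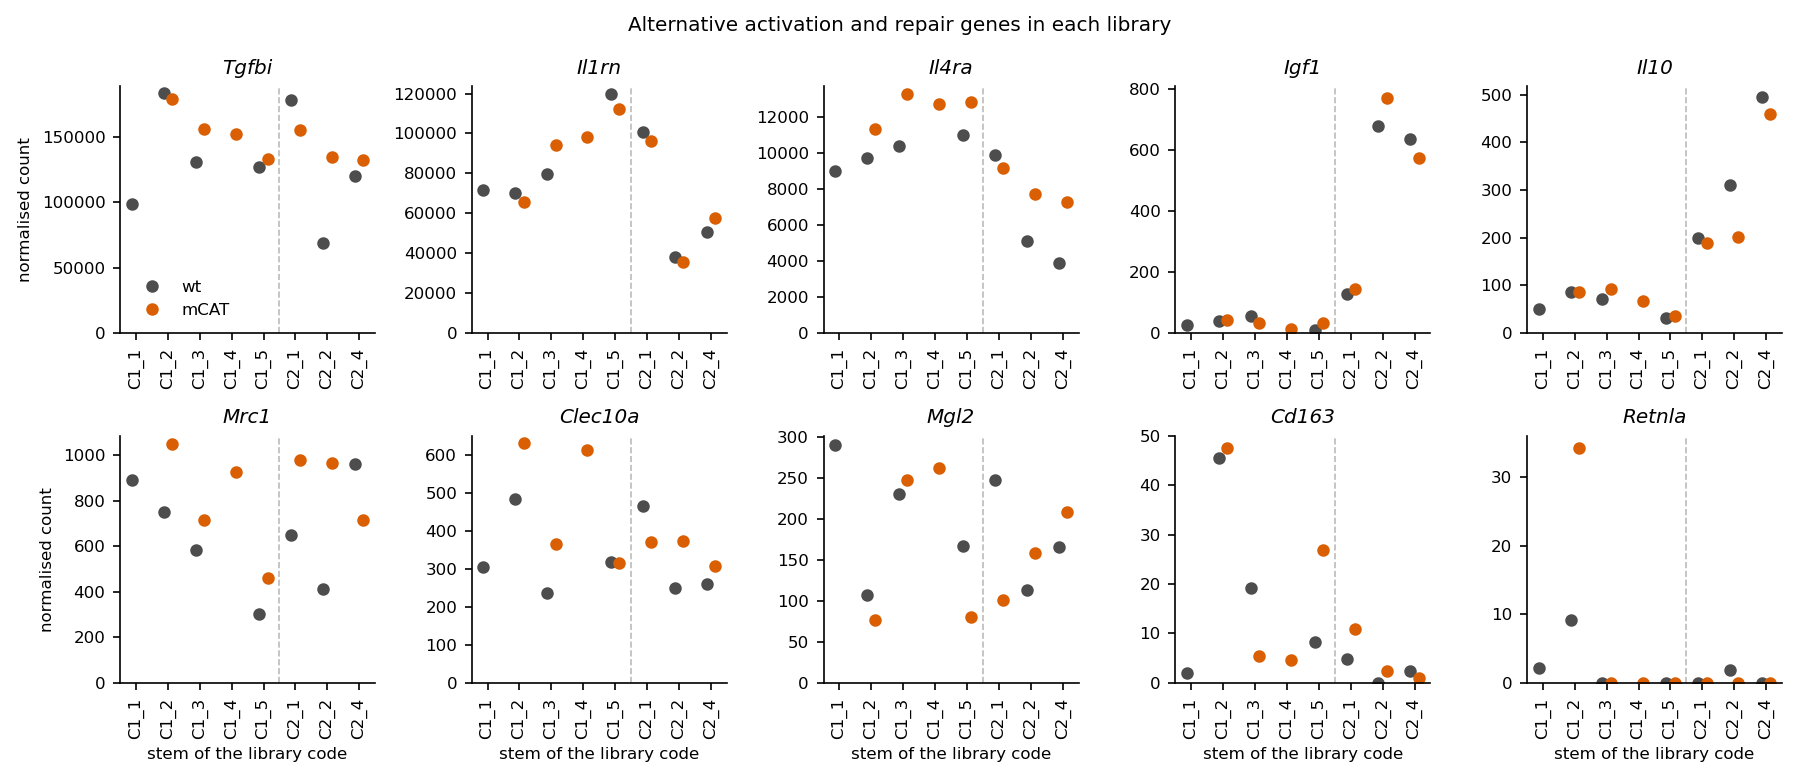
Normalised count of each gene in each library, by stem of the library code on the x axis, with wt in grey and mCAT in orange, and a dashed line between series C1 and C2. Each y axis is linear and starts at 0. Igf1 and Il10 stand higher in each C2 library than in any C1 library, Il1rn and Il4ra are lowest in C2_2 and C2_4, and Retnla and Cd163 peak in stem C1_2.

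The spread within each genotype followed the library codes for some of these genes. Between the series, with genotype in the model and the stem as a random block, 2 of 8 tested genes were called, Igf1 and Il10, both higher in C2. Over all genes 2.71% were called, 1.6% higher and 1.11% lower in C2. The median log2 difference of the 8 was -0.12, against -0.01 over all genes, with 3 above 0.

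Igf1, a growth factor that macrophages release in repair, was at 26.7, 39.9, 55.9 and 9.28 in wt 1 to wt 4 and at 43.7, 33.9, 13.7 and 31.7 in mCAT 1 to mCAT 4, the C1 libraries. In C2 it was at 128 and 144 in the partners of stem C2_1, at 681 and 773 in those of C2_2, and at 638 and 573 in those of C2_4. The series did not overlap, C2_1 lay between C1 and the other C2 stems, and both genotypes showed the same order. The mean was 31.8 ± 15.4 (SD, n = 8) in C1 and 490 ± 282 (SD, n = 6) in C2, which is 15.4-fold higher. The log2 difference was 2.13 (SE 0.30, 95% interval 1.51 to 2.75, adjusted p = 0.000767).

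Il10 was at 49.8, 86.9, 70.7 and 30.4 in wt 1 to wt 4 and at 85.8, 92.8, 66.4 and 34.7 in mCAT 1 to mCAT 4. In C2 it was at 199 and 188 in the partners of stem C2_1, 310 and 201 in those of C2_2, and 495 and 460 in those of C2_4. The mean rose from 64.7 ± 24.1 (SD, n = 8) to 309 ± 138 (SD, n = 6), 4.77-fold, with a log2 difference of 1.32 (SE 0.21, 95% interval 0.88 to 1.75, adjusted p = 0.00176). Ranges that do not overlap, higher in C2, were found for 1.4% of all genes, and Igf1 and Il10 were the 2 such members. The highest Igf1 was in stem C2_2 and the highest Il10 in stem C2_4.

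The stems that make up a series are few, 5 in C1 and 3 in C2. On the means of stems Igf1 (adjusted p = 0.0270) and Il10 (adjusted p = 0.0371) were still called. Within wt alone, with 4 against 3 libraries, neither was (adjusted p = 0.116 for Igf1 and 0.0892 for Il10), and within mCAT alone Igf1 was (0.0429) and Il10 was not (0.0759), with log2 differences between 1.16 (Il10 within mCAT) and 2.14 (Igf1 within mCAT) in these 2 genotypes. On log2(normalised count + 1), which compresses low counts less, the series differences were 3.81 for Igf1 (adjusted p = 0.00106) and 2.23 for Il10 (adjusted p = 0.00224).

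Other values moved with Igf1 and Il10. Of 10 tested markers of microglia, the resident macrophages of the brain, in which Igf1 is also made, 3 were called higher in C2 (Gpr34, Olfml3 and Cx3cr1) and 9 were above 0, with a median difference of 0.67. Their summed level, over 11 measured genes, was 24800 to 52089 in C1 and 53229 to 98079 in C2, and no defining marker was at 0 in all libraries. Tmem119 averaged 1598 in C1 and 2669 in C2 (adjusted p = 0.101), P2ry12 averaged 924 and 1236 (adjusted p = 0.198), and Sall1, a microglial transcription factor, stayed between 1.57 and 36.2; these 3 were named after their values were seen. Of 12 tested markers of monocyte-derived macrophages 1 was called, 6 were above 0 and the median was -0.02. The called gene was Lyz2, a lysozyme gene, 2.85-fold higher in C2 (log2 difference 1.43, adjusted p = 0.00443). With quantile normalisation its difference was 0.31 (adjusted p = 0.362). Quantile normalisation gives the most abundant gene of every library the same value. Lyz2 held that place in each C2 library and in some C1 libraries, so that fit cannot decide whether it differed. Of 7 tested neutrophil markers 1 was called, lower in C2, 1 was above 0 and the median was -0.69. The called gene, Cxcr2, averaged 29.4 in C1 and 3.61 in C2, where its highest value was 9.37, so it entered the test only through C1 libraries and its direction is given as a description. Between genotypes, paired by stem, 1 of the 7, not named here, was called higher in mCAT, against 0.165% of all genes. Among 10 tested markers of oligodendrocytes, astrocytes and neurons 1 was called, 6 were above 0 and the median was 0.08. The called gene, Slc1a2, a glutamate transporter of astrocytes, was lower in C2, at 1090 in C1 and 340 in C2 (adjusted p = 0.000571). Of the tested markers of dendritic, T, B, natural killer, mast, endothelial and fibroblast cells and eosinophils 0 were called. The part of any of these in the Igf1 and Il10 differences was not tested.

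**Figure D3:**
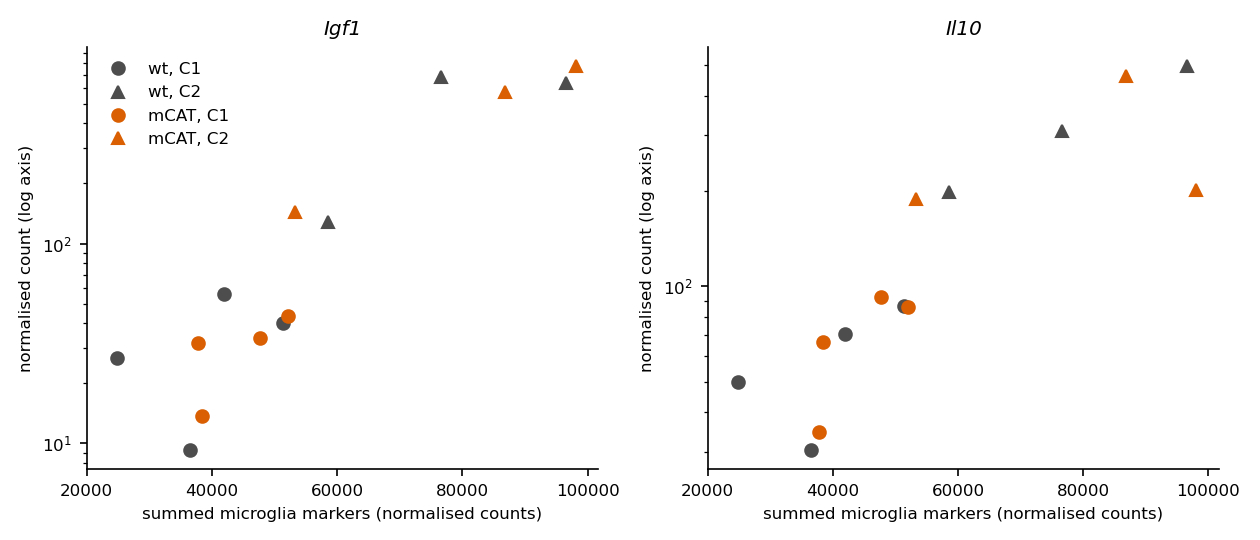
Normalised count of Igf1 (left) and Il10 (right), on a log axis, against the summed normalised counts of 11 microglia markers, one point per library; circles are C1 and triangles C2, grey is wt and orange mCAT. The C2 libraries lie to the right of and above all C1 libraries in both panels, with marker sums from 53229 against at most 52089.

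Il4ra and Il1rn had lower means in C2 and did not pass the test. Il4ra averaged 11307 ± 1554 (SD, n = 8) in C1, with a range of 9030 to 13281, and 7184 ± 2331 (SD, n = 6) in C2. The C2 partners of C2_1 (9920 and 9206) lay inside the C1 range, and those of C2_2 (5103 and 7728) and C2_4 (3874 and 7271) below it. The log2 difference was -0.70 (SE 0.19, 95% interval -1.09 to -0.31, adjusted p = 0.0529). It was called without the stem block (0.0142), with quantile normalisation (0.0404), with no filter (0.0455), without wt 1 (0.0322), without wt 5 (0.00943) and without stem C2_1 (-0.94, adjusted p = 0.00164). It was not called in the other fits, with adjusted p = 0.128 on stem means, 0.412 within wt, 0.358 without stem C2_2 and 0.372 without stem C2_4 (-0.52).

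Il1rn averaged 88892 ± 20237 (SD, n = 8) in C1 and 63210 ± 28598 (SD, n = 6) in C2, a log2 difference of -0.57 (SE 0.24, adjusted p = 0.228). Its C2_1 libraries, at 100788 and 96312, were as high as the upper C1 libraries, whereas C2_2 (38239 and 35376) and C2_4 (50870 and 57673) lay below every C1 library. The difference rested on single stems: without C2_1 it was -0.95 and was called (adjusted p = 0.00797), and without C2_2 it was -0.24 (adjusted p = 0.797).

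Mrc1 (0.10, SE 0.25), Clec10a (-0.20, SE 0.20), Mgl2 (-0.09, SE 0.25) and Tgfbi (-0.15, SE 0.22) did not pass between the series, with adjusted p from 0.676 to 0.901. Cd163 had a median of 13.7 in C1 and 2.37 in C2, with overlapping ranges and no test. The genotype difference was not shown to depend on the series for any tested member: 0 of 8 interactions were called, against 0% of all genes (339 of 12096 had an unadjusted p under 0.05, and 0 of the 8 members), and the estimates ran from -0.29 (Il10) to 0.16 (Il4ra).

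**Figure D4:**
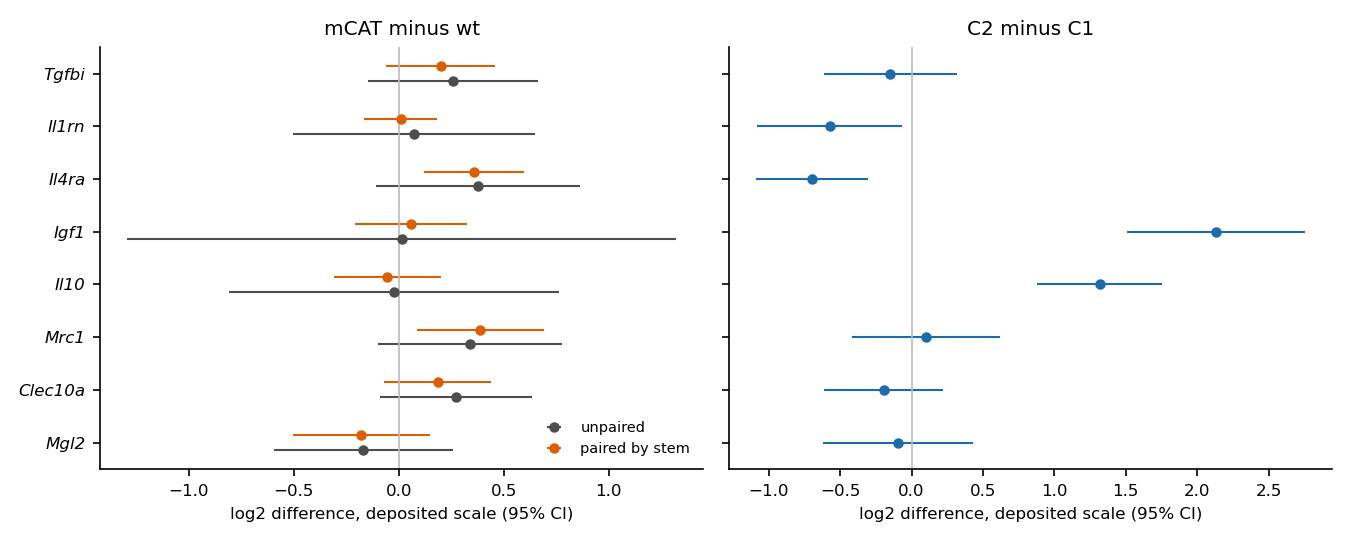
Log2 difference on the deposited scale, with its 95% interval, of the 8 tested genes: mCAT minus wt (left; unpaired in grey, paired by stem in orange) and C2 minus C1 (right). The genotype estimates lie between -0.18 and 0.39; between the series, Igf1 (2.13) and Il10 (1.32) lie highest and Il4ra (-0.70) and Il1rn (-0.57) lowest.

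Genes of the same pathways gave the following counts, none of them called between genotypes without pairing. Among 16 tested receptor chains, transducers and regulators of IL-4 and IL-13 signalling, 0 were higher and 2 lower in C2, with a median of -0.25. Both are feedback inhibitors of cytokine receptors: Cish fell from 3247 to 1728 normalised counts (adjusted p = 0.0261) and Socs2 from 1823 to 1066 (adjusted p = 0.0350). Of 18 other IL-4-induced genes 1 was lower, Ccl17, a chemokine for T cells, at 589 in C1 and 150 in C2 (log2 difference -1.51, adjusted p = 0.0150), and the list's median was -0.50.

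Of 13 tested genes of the IL-10 receptor, its transducers and targets, 0 were called, with a median of -0.09. Stat3, the transcription factor downstream of the IL-10 receptor, averaged 7553 in C1 and 5273 in C2 (adjusted p = 0.0592), and Nfil3 averaged 28850 and 21285 (adjusted p = 0.105). Among 13 genes of IL-1 ligands, receptors and adaptors, 1 was called: Il1r2, the decoy receptor that, like the antagonist encoded by Il1rn, limits IL-1 signalling, was 5.42-fold lower in C2, at 6191 against 1143 (log2 difference -2.43, SE 0.31, adjusted p = 0.000274).

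Of 8 tested IGF receptors and binding proteins, 2 were called higher in C2, but the list's median was -0.13, with 3 above 0. Igf2r, the receptor that clears IGF2, was at 718 in C1 and 1276 in C2 (adjusted p = 0.0261). The binding protein gene Igfbp4 was at 116 and 279 (adjusted p = 0.0288). Of 14 genes of the TGF-beta pathway, 2 were called higher, with a list median of 0.05 and 8 above 0. These were the receptor Tgfbr1 (986 and 2019, adjusted p = 0.0355) and the integrin subunit Itgb5 (2234 and 5194, adjusted p = 0.000822), while Tgfbi did not pass. Of 16 other growth and repair factors, 3 were higher and 0 lower: Gdf15 rose 4.25-fold (adjusted p = 0.00150), Areg 3.14-fold (0.0203) and Lif 2.88-fold (0.0153), with a median of 0.57 for the list. Of 12 other scavenger and lectin receptors, Colec12 was higher, at 33.1 in C1 and 287 in C2 (adjusted p = 0.0105). The median of these 12 was 0.16, with 6 above 0. The calls of Cish, Socs2, Ccl17, Igf2r, Igfbp4, Tgfbr1, Areg, Lif, Colec12 and Lyz2 were each lost in at least 2 of the 20 distinct fits that left out a library or a stem, and those of Il1r2, Itgb5, Gdf15, Gpr34, Olfml3, Cx3cr1, Igf1 and Il10 in 0 of 20.

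For each tested member the 3 genes with the highest correlation over the 14 libraries, with each genotype centred on its mean, were looked up among all tested genes. These are maxima over many genes in libraries that share stems, given as a description. The centring left the difference between the series in the values, and its part in the correlations was not tested. The genes named for Igf1 and Il10 were themselves called higher in C2 (adjusted p from 0.000767 to 0.0150). Of those named for Il4ra, Gpr35 was called lower (adjusted p = 0.0352). Igf1 was most like Tnfsf13 (Pearson r = 0.97), which encodes the cytokine APRIL, then Timp2, an inhibitor of metalloproteinases, and Fabp4, a fatty acid binding protein (0.97 each). Il10 was most like Itgb5 (0.98), then Limd2 (0.96) and Ctsf, a cathepsin (0.95). Il4ra was most like Gpr35 (0.96), a G protein-coupled receptor, Nr1h2 (0.96), the liver X receptor beta, and Ppp1r3d (0.95).

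Il1rn was most like Eif4ebp1 (0.97), an inhibitor of translation initiation, Spint1 (0.97) and Tgm2 (0.96), a transglutaminase. Tgfbi was most like Tkt (0.96), the transketolase of the pentose phosphate pathway, Csf2rb2 (0.94) and Thoc5 (0.92). Mrc1 (Thbs1, Galnt2 and Cep128, 0.86 to 0.84), Clec10a (Enpp2, Srebf1 and Nfam1, 0.85 to 0.82) and Mgl2 (Fubp1, Cacna2d1 and Irf2bp1, 0.87 to 0.83) had lower maxima. For Mrc1 the value for Thbs1 was 0.75 without wt 4 and mCAT 4, the libraries farthest from its median. Between members, Igf1 and Il10 correlated at 0.91 and Il1rn and Il4ra at 0.78, and these 2 sets ran against each other, at -0.91 for Igf1 and Il4ra, -0.89 for Il10 and Il4ra, -0.83 for Igf1 and Il1rn and -0.65 for Il10 and Il1rn. These values too hold the series difference, in which Igf1 and Il10 were higher and Il4ra and Il1rn had lower means in C2. The correlations of Mrc1 with the other members lay between -0.33 and 0.35.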

How the data were processed

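Polyadenylated RNA of sorted macrophages was sequenced from Smart-seq2 libraries, which keep no strand information, so a gene and an overlapping antisense gene cannot be told apart. FastQC, fastp, Salmon and the build GRCm39 are named in the submitters' processing notes, without versions or an annotation. The file's title speaks of raw counts, but the authors deposited log2 values of the form of a variance-stabilising transformation: no value is whole, and all 14 libraries share the lowest value, 5.96. Inverting its closed form with the constant 249.7 gave normalised counts; whole reads were not recovered, and depth is a rough estimate that bears on counting error only. Tests for counts had been chosen; as the values were log2, limma 3.58.1 (R 4.3.3, mean-variance trend, robust, statmod 1.5.0) was run on the deposited values without pairing for genotype, and with the code stem as random block for the series and the interaction. P-values are 2-sided. Each fit was also run on 1 simulated data set of its own. The unpaired genotype fit made no false call. The paired, series and interaction fits made more than the nominal share, so calls near the threshold in those fits are less secure. Of simulated log2 shifts of 0.5, the unpaired genotype fit recovered 20.9%, the paired 49.3%, the series 5.97% and the interaction fit 1.49%. Shifts of that size or smaller can thus go uncalled. The members and gene lists were chosen with earlier results of these data known.

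Replicates are libraries that the labels give as separate; nothing says they came from separate animals, so p-values measure the spread between these libraries. The code stem was taken to pair libraries because deviations from the group means correlated between the partners of all 6 stems (0.232 to 0.659). In stem C2_1 (0.232) the partners were not each other's best match. The numbers in the titles gave -0.294 to 0.641 and were used as a block only in an alternative. Title numbers 4 to 7 join libraries that also share a stem, so the upper value belongs to both schemes. Only title numbers 1 to 3 pair libraries differently, at -0.294, 0.158 and 0.252. Partners of a stem also share a series, and its part in these correlations was not tested. Named were the 10 genes, for each tested one the 3 most correlated genes, and of each list the called genes or, with none called, up to 2 with the smallest p; exceptions are marked. Exon lengths, neighbourhood and shared stretches came from GENCODE M21 on GRCm38, whereas the values are on GRCm39. Analyses used Python 3.11.15, pandas 2.3.3 and scipy 1.17.1. Alternatives were other filters (none, and 50 in place of 10), quantile normalisation, log2(normalised count + 1), the block, single genotypes or series, stem means and leaving out libraries, with each stem left out added after seeing the data.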

Additional observations from a re-analysis of the deposited data

Results flagged for a closer look

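Retnla in mCAT 1 stood apart from the other mCAT libraries, at 34.3 normalised counts while the other 6 were at 0. Among 20 groups of 7 libraries examined (10 genes in each genotype) this was the 1 in which a single library lay that far from the rest. The rule is set to flag about 1 in 20 groups by chance. That rate does not hold here, because with the other 6 at 0 any single value above 0 is flagged. Its wt partner of stem C1_2, wt 2, had the second highest value of all libraries, 9.22.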

How the results depend on the processing

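The genotype comparison called 24 genes without pairing and 39 with the code stem as replicate block (no gene of the 10 in either), 15 within C1, 9 within C2 and between 18 and 37 with a library or pair left out. The series comparison called 328 genes with the stem block, 903 without it, 15 within wt, 81 within mCAT, 51 on stem means, and from 55 (without stem C2_2) to 1170 (without stem C2_1) with a library or stem left out. No other call of a tested member changed with the replicate block besides that of Il4ra between the series. Igf1 ran from 1.80 to 2.69 and Il10 from 1.04 to 1.52 in the 20 distinct fits that left out a library or a stem, and both were called in all 20. With the number in the titles as replicate block the genotype comparison called 25 genes and 0 of the 8 tested members.

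Differences near 0 changed sign. Between genotypes Il10 was 0.0227 with log2(normalised count + 1), 0.107 within C1 and -0.234 to 0.202 with a library left out. Il1rn ran from -0.0761 to 0.254, and Igf1 was -0.00772 within C1 and -0.311 to 0.315 with a library left out. With the code stem as replicate block and 1 pair left out, Il10 was 0.0226 (stem C2_2), Il1rn -0.0364 (C1_3) and -0.0240 (C2_4), and Igf1 -0.0206 (C1_5). Between series Mrc1 ran from -0.108 to 0.222, Mgl2 from -0.253 to 0.00144 (0.0156 within mCAT) and Tgfbi from -0.346 to 0.0496 with a library or stem left out. Interactions ran from -0.234 to 0.375 for Mrc1, -0.241 to 0.131 for Il1rn, -0.0495 to 0.405 for Mgl2, -0.0918 to 0.490 for Il4ra, -0.213 to 0.417 for Tgfbi and -0.280 to 0.268 for Igf1, which was -0.0520 with quantile normalisation and -0.0933 with log2(normalised count + 1). The cause was not tested. Fits within 1 series or genotype use fewer libraries. Low counts are compressed on the deposited scale, which limits Retnla, Cd163 and, in C1, Igf1 most.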
